A study of Mus musculus with 3 samples.

Results

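The 10 genes described here encode molecules that pass checkpoint or costimulatory signals between antigen-presenting cells and lymphocytes: Cd274 (PD-L1), Pdcd1lg2 (PD-L2), Cd80, Cd86, Cd40, Lgals9 (galectin-9), Pvr (CD155), Vsir (VISTA), Cd200r1 and Sirpa. They were taken by symbol from 55401 listed genes, and each symbol was listed once. Cd40, Cd200r1 and Sirpa encode receptors, so the set as a whole is not one of ligands only.

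They were followed in immune cells of YUMM1.7 tumours, a transplantable mouse melanoma line, in mice aged 4, 12 and 20 months. Each animal was given 500000 tumour cells under the skin and the tumours were removed on day 18. Live cells were sorted with an antibody to CD45.2, a form of the leukocyte protein CD45. The labels name 7 mice for each age, but not their strain or sex, nor how each mouse contributed to the library of its age. All animals bore the same tumour line, and there was 1 library per age, so differences between ages have no replicate check and no p-value is given.

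T cells need costimulation besides antigen, and CD80 and CD86 deliver it through CD28, while both also bind the inhibitory receptor CTLA-4. PD-L1 and PD-L2 engage PD-1 on activated T cells and restrain them. CD40 on antigen-presenting cells receives the CD40 ligand signal of helper T cells, and SIRPα on phagocytes receives the CD47 signal that restrains engulfment.

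Between 14393 and 14684 cells were deposited per library, at median counts per cell of 6789, 7411 and 6936 for 4, 12 and 20 months. Any pair of libraries shared at most 4 cell barcodes. Clusters were formed without the 10 genes and named from markers. They gave 5251, 4195 and 5103 monocyte/macrophage-like cells, 705, 609 and 685 dendritic cell-like cells, 5123, 6739 and 6258 T-like cells and 2292, 2087 and 1618 NK-like cells. One dendritic cluster of 409 cells led by Fscn1, Ccl22 and Ccr7, genes of mature dendritic cells, is called mature dendritic-like. The labels call the cell type melanoma. In monocyte/macrophage-like cells a list of 8 melanoma or stroma markers summed to 25.02, 22.99 and 25.5 CPM. That class was named by its myeloid markers, so this sum does not say whether the libraries hold melanoma cells.

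A level is a gene's share of all counts in the cells concerned, in CPM, and brackets give its exact 95% Poisson interval. Where 3 values stand together, they are those of 4, 12 and 20 months, in that order. A difference between ages is given as a log2 ratio to 4 months with its 95% interval in brackets. These intervals cover counting error only. Levels are compared between cells and ages and not between genes, since reads come from the 3′ end.

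Gene positions are those of GENCODE M21 on GRCm38. Cd274 (ENSMUSG00000016496.7) spans chromosome 19 from 29367455 to 29388095, and Pdcd1lg2 (ENSMUSG00000016498.10) lies on the same strand from 29410919 to 29471161, with 22823 bases between them. Chromosome 16 holds Cd80 from 38455561 to 38496335, Cd86 from 36603869 to 36666081 and Cd200r1 from 44765736 to 44794978. Chromosome 2 holds Cd40 from 165055627 to 165072948 and Sirpa from 129592835 to 129632228. Lgals9 lies on chromosome 11 from 78962974 to 78984946, Pvr on chromosome 7 from 19903578 to 19921160, and Vsir on chromosome 10 from 60346851 to 60372684. Pdcd1lg2, Pvr and Vsir overlap genes of the opposite strand, Cdh23 in the case of Vsir, but not with their exons. Exons of Cd274 overlap those of the antisense gene AC119228.1, and whether counting used strand is not given in the sources used here, so reads of this pair cannot be told apart. Sirpa and Cd200r1 have close relatives in the genome, and how shared reads were counted is not given either.

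The upstream sequences of Cd274 and Pdcd1lg2 are shown because these neighbours differ in where they were expressed, and that of Lgals9 because it alone held a match to a motif searched. They come from RefSeq's promoter table on GRCm38, which covers 5 of the 10 genes, and run from 250 to 31 bases before the annotated start, read along the gene. Capitals mark the match to the interferon-stimulated response element.
Cd274, chr19:29367188-29367407, plus strand: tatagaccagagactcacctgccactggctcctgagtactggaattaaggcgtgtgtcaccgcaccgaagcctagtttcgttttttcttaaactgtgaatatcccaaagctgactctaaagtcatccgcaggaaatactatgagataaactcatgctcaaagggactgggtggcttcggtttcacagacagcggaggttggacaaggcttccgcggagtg
Pdcd1lg2, chr19:29410669-29410888, plus strand: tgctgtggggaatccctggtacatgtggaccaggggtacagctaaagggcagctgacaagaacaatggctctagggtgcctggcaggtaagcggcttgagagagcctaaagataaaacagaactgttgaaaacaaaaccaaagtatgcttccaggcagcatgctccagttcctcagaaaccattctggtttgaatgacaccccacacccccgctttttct
Lgals9, chr11:78984955-78985174, minus strand: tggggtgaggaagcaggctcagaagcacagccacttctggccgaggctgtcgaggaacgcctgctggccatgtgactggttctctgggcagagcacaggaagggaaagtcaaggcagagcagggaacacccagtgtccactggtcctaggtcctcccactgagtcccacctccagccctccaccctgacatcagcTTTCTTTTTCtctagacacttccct

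The match in Lgals9 starts 55 bases before the start and lies on the strand opposite to the gene, and 2.63% of 32851 promoters held this motif in a window of the same length. The interferon-gamma activated site TTCNNNGAA, present in 6.27% of promoters, and an NF-κB site, present in 1.17%, were found in none of the windows of Cd274, Pdcd1lg2, Cd80, Lgals9 and Vsir. All 3 motifs were searched on both strands. Both interferon motifs hold GAA and can overlap, and no match says only that these letters are not in these windows.

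Mature dendritic-like cells had the highest levels of Cd274, Pdcd1lg2, Cd80 and Cd40 among 24 groups of at least 25 cells per library. For each of these 4 genes the lowest of their 3 libraries was above the highest of the group next in order. Cd274 stood at 414 [376 to 456], 371 [342 to 402] and 295 [260.0 to 334] CPM. Next were nonclassical monocyte-like cells, led by Mmp12, Cd36 and Ace, with 172, 188 and 161. Cd274 had its lowest median in a cluster of 127 cells led by the matrix genes Mgp, Apod and Col3a1, with 31.5, 39.2 and 20.05, which overlapped dividing T-like cells, with 32.4, 33.00 and 33.2.

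Pdcd1lg2, the second PD-1 ligand, was ordered differently below the top. It stood at 220.2 [193 to 251], 166 [147 to 187] and 151 [126 to 179.6] CPM in mature dendritic-like cells. NK-like cells followed with 66.6, 61.8 and 65.7 and regulatory T-like cells, led by Tnfrsf4 and Foxp3, with 73.1, 61.03 and 64.9, and these 2 groups overlapped. Monocyte/macrophage-like cells had 11.5, 11.98 and 10.9, below both.

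The CD28 ligands differed in their top group. Cd80 was at 275 [244 to 309], 230.4 [207 to 255] and 192 [164 to 224] CPM in mature dendritic-like cells and at 177, 117 and 119 in dendritic cell-like cells led by Il1r2, Il1b and Ptgs2, which were second. Cd86 was highest in the Il1r2-led cells, at 732 [672 to 795], 657 [602 to 714] and 739 [679 to 802], and second in mature dendritic-like cells, at 457 [417 to 499.8], 434 [402 to 467] and 342 [304 to 384]. The lowest library of the former lay above the highest of the latter. Cd40, the receptor that licenses dendritic cells, was at 434 [395 to 476], 378 [349 to 409.7] and 370.3 [331 to 414] in mature dendritic-like cells, and at 233, 281 and 243 in the second group, monocyte/macrophage-like cells led by Cxcl11 and Cxcl9.

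Lgals9, whose product binds TIM-3 among other partners, was lowest of all groups in mature dendritic-like cells, at 90.4, 96.8 and 91.4 CPM. Its highest level, 714 [696 to 732], 601 [579 to 623] and 572 [553 to 592], was in monocyte/macrophage-like cells led by AA467197, Tgm2 and Plac8. Vsir, an inhibitory molecule of myeloid and T cells, was highest in C1q macrophage-like cells, led by Pf4 and Cd81, at 292 [276 to 309], 289 [276 to 303] and 273 [264 to 283], above every other group. Sirpa was highest in nonclassical monocyte-like cells, at 327, 222 and 275, and C1q macrophage-like cells, at 239.8, 275 and 291, whose ranges overlapped.

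Cd200r1, which receives the inhibitory CD200 signal, was highest in dendritic cell-like cells led by Cyp7b1, Apod and Siglech, at 118 [88.9 to 153], 137 [99.4 to 185] and 147 [109 to 193] CPM. This group itself scored highest for plasmacytoid dendritic markers (0.70), followed by type 2 dendritic markers (0.62). It was small, with 48, 33 and 40 cells. Its lowest library still lay above the highest of the separate plasmacytoid dendritic-like cluster that came second, at 52.4, 34.98 and 47.96. Pvr, which binds the activating receptor CD226 and the inhibitory TIGIT, was highest in mature dendritic-like cells, at 58.7, 59.9 and 52.7. The Il1r2-led cells, at 42.3, 31.6 and 55.02, overlapped them.

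**Figure D1:**
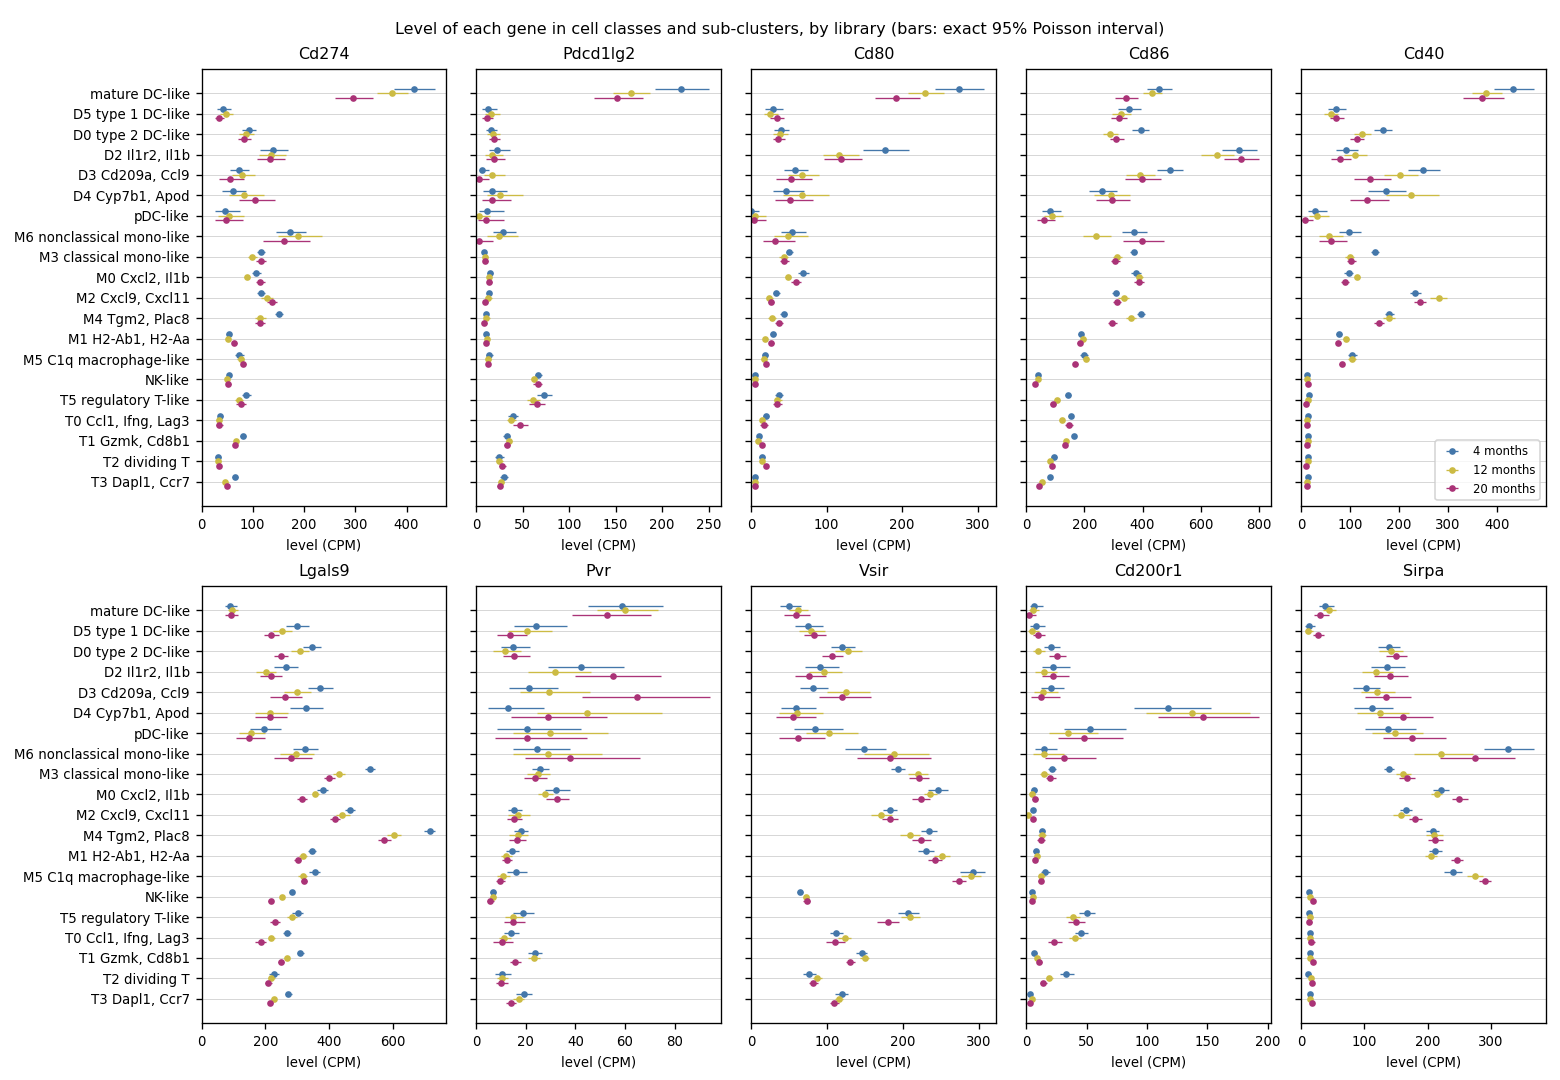
Level of each of the 10 genes (x axis, CPM, linear from 0) in 20 groups of cells (y axis) in the libraries of 4, 12 and 20 months (colours), with exact 95% Poisson intervals as bars. Mature dendritic-like cells stand to the right of the other groups for Cd274, Pdcd1lg2, Cd80 and Cd40, and are lowest for Lgals9.

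Type 1 dendritic-like cells, led by Xcr1 and Clec9a and known for cross-presentation to CD8 T cells, had low levels of several of the 10 genes. Cd274 stood there at 41.7, 46.8 and 34.03 CPM and Cd40 at 71.3, 60.1 and 71.9. Sirpa, a known marker that separates type 2 from type 1 dendritic cells, was at 12.1, 10.6 and 26.3 there, a range that overlapped T-like groups, against 139, 141 and 151 in type 2 dendritic-like cells led by Ffar2 and Mgl2. Cd86 overlapped between these 2 groups, with 354, 326 and 318 in the first and 393, 289 and 310.4 in the second. Plasmacytoid dendritic-like cells, 62, 57 and 52 in number, had Cd86 at 81.6, 88.8 and 61.7.

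Mature dendritic-like cells were few, so most counts of these genes came from other cells. Of all Cd274 counts, 4.98%, 7.24% and 3.07% lay in mature dendritic-like cells. Monocyte/macrophage-like cells held 52.7%, 42.6% and 53.9% of them, and T-like cells held 24.4%, 32.7% and 29.1%. Pdcd1lg2 was split otherwise, with 37.4%, 46.4% and 47.9% held by T-like cells, 38.2%, 30.9% and 28.00% by NK-like and 14.8%, 12.9% and 16.5% by monocyte/macrophage-like cells. Most Sirpa counts, 85.6%, 83.4% and 85.4%, came from the last of these classes.

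Within monocyte/macrophage-like cells the genes differed between states. Cd274 was low in cells led by H2-Ab1 and H2-Aa, which present antigen on MHC class II, at 53.1, 50.97 and 63.3 CPM, and higher in the Cxcl11-led cells, whose leading genes are known targets of interferon-gamma, at 115, 128 and 137. Cd40 went the same way, with 77.7, 91.1 and 76.2 in the first and 233, 281 and 243 in the second. Cd80 was highest of the class in cells led by Cxcl2 and Il1b, at 68.7, 48.1 and 59.1. Nonclassical monocyte-like cells, at 53.7, 48.2 and 31.6, and classical monocyte-like cells, between 42.7 and 50.3, overlapped them. Classical monocyte-like cells, which were also led by the neutrophil genes S100a8, Ngp and Camp, had Lgals9 at 527, 431 and 399.9. The H2-Ab1-led cells also scored highest for C1q macrophage markers, and the Tgm2-led cells for classical monocyte markers. No marker of these lists was among their leading genes, and both groups are called by those genes here.

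Counts in T-like and NK-like cells were set against those of macrophage genes. For 6 macrophage genes that lymphocytes should lack (C1qa, C1qb, C1qc, Csf1r, Cd14 and Lyz2), the median level in T-like cells was 7.67%, 7.72% and 8.86% of that in monocyte/macrophage-like cells. Sirpa, at 6.95%, 6.91% and 8.39%, and Cd40, at 9.29%, 10.1% and 10.2%, lay near this background and are read as such in T-like cells. Cd86 lay above it in T-like cells, at 41.6%, 33.02% and 36.9%, and nearer to it in NK-like cells, at 12.9%, 13.4% and 12.6%, where the macrophage genes gave 7.21%, 7.29% and 7.51%. Cd80 behaved alike, with 35.3%, 38.2% and 43.5% in T-like and 13.3%, 15.5% and 14.8% in NK-like cells.

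Lgals9, Pvr, Vsir and Cd274 were well above the macrophage background in T-like cells. Lgals9 reached 58.1%, 62.9% and 61.3% of the monocyte/macrophage-like level, Pvr 90.8%, 88.9% and 82.5%, Vsir 60.00%, 55.99% and 50.7% and Cd274 59.96%, 59.3% and 54.7%. Pdcd1lg2, at 327%, 278% and 294%, and Cd200r1, at 189.8%, 184% and 119%, were higher in T-like cells than in the macrophage class. In NK-like cells Pdcd1lg2 reached 581%, 516% and 601%. With each cell thinned to 1000 counts, a Pdcd1lg2 count was found in 6.98% [5.97 to 8.10], 5.46% [4.53 to 6.53] and 6.92% [5.73 to 8.27] of NK-like cells, where brackets are exact binomial intervals, and in 1.14%, 1.12% and 1.06% of monocyte/macrophage-like cells. Without thinning the shares were 38.3%, 39.1% and 37.2% and 8.44%, 10.3% and 8.72%.

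**Figure D2:**
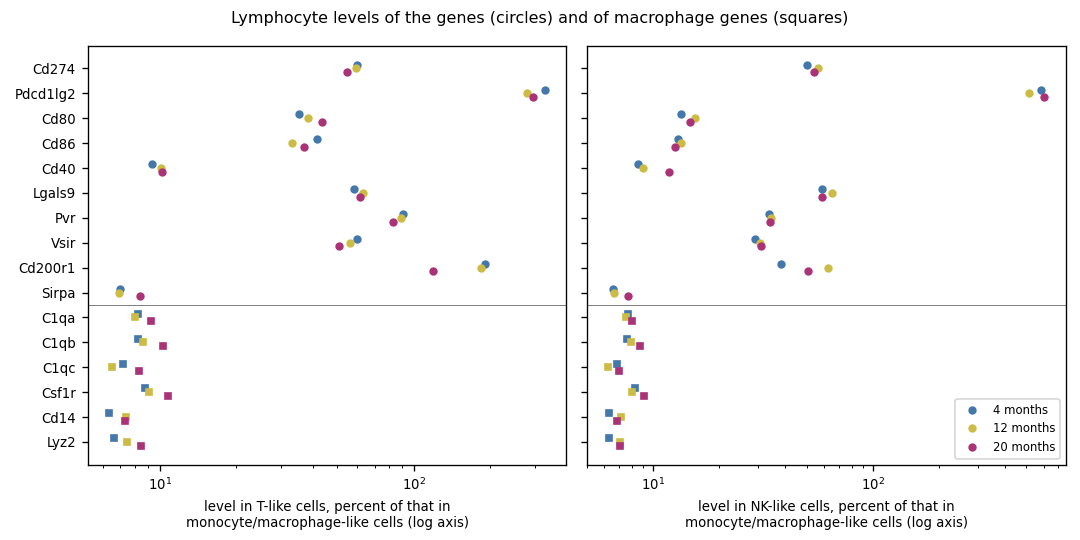
Level of the 10 genes (circles) and of 6 macrophage genes (squares) in T-like cells and NK-like cells, as a percent of the level in monocyte/macrophage-like cells of the same library (x axis, logarithmic). Sirpa and Cd40 lie among or close to the macrophage genes, whereas Pdcd1lg2 lies above 100% in both kinds of lymphocyte.

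Ages were compared by counting genes 1.5-fold or more higher or lower than at 4 months, among genes with at least 50 counts in the class, beside the same shares over all such genes. In mature dendritic-like cells, 9 of the 10 could be compared at 20 months. None was that much higher, against 8% of 6891 genes, and none that much lower, against 9.74%. Their median log2 ratio was -0.34, against -0.05 over all genes. At 12 months there were again none higher (8.47% of all genes) or lower (4.86%), with a median of -0.07 against 0.03. Both comparisons share the 4-month library.

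Below that threshold, 5 genes were lower at 20 than at 4 months beyond their counting intervals. The log2 ratio was -0.49 [-0.72 to -0.26] for Cd274 and -0.54 [-0.87 to -0.23] for Pdcd1lg2, the PD-1 ligands. It was -0.52 [-0.80 to -0.24] for Cd80, -0.42 [-0.63 to -0.20] for Cd86 and -0.23 [-0.44 to -0.02] for Cd40. Only Pdcd1lg2, Cd80 and Cd40 also differed at 12 months by this measure, with -0.41 [-0.67 to -0.15], -0.26 [-0.48 to -0.03] and -0.20 [-0.38 to -0.02]. With doublets kept, the 20-month ratios of Cd274 and Pdcd1lg2 were -0.60 and -0.61, past 1.5-fold.

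Lgals9, Pvr, Vsir and Sirpa in these cells had 20-month ratios whose intervals included 0, at 0.02 [-0.44 to 0.46], -0.15 [-0.74 to 0.43], 0.23 [-0.36 to 0.82] and -0.34 [-1.11 to 0.41]. The interval of Cd274 overlapped that of each of these genes, and whether their ratios differ from that of Cd274 was not tested. Cd200r1 had 7, 9 and 2 counts in all and was not compared. The cells numbered 137, 169 and 103.

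Other genes of mature dendritic-like cells moved over the same ages. Of 9 markers of mature dendritic cells, 8 were lower at 20 than at 4 months and 1, Ccl17, was higher, and their sum was 11645, 11281 and 9985 CPM. The 7 C1q macrophage markers summed to 488, 689 and 945 CPM in these cells, 6 T cell markers to 647, 863 and 756 and 7 NK cell markers to 495, 398 and 278, and no marker of these 4 lists was at 0. Their part in the lower levels of Cd274, Pdcd1lg2, Cd80, Cd86 and Cd40 was not tested. With the level in T-like cells subtracted, the 20-month ratio was -0.53 for Cd274 and -0.55 for Cd80.

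The share of mature dendritic-like cells with a Cd274 count, after thinning to 1000 counts, was 33.6% [25.7 to 42.1], 28.99% [22.3 to 36.5] and 23.3% [15.5 to 32.7], with intervals that overlapped. The shares in T-like cells were 7.24%, 5.31% and 4.92%. Without thinning, 79.6%, 89.9% and 75.7% of mature dendritic-like cells had a Cd274 count. Median counts per cell were 6601, 8540 and 7510, so no order over age is read from the unthinned shares. After thinning to 1000 counts, the shares of mature dendritic-like cells were 19.7%, 20.1% and 12.6% for Pdcd1lg2 and 24.1%, 20.7% and 14.6% for Cd80. They were 28.5%, 35.5% and 28.2% for Cd86 and 27.0%, 29.0% and 24.3% for Cd40, so Cd86 was almost the same at 4 and 20 months. For each of these genes the intervals of the ages overlapped.

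**Figure D3:**
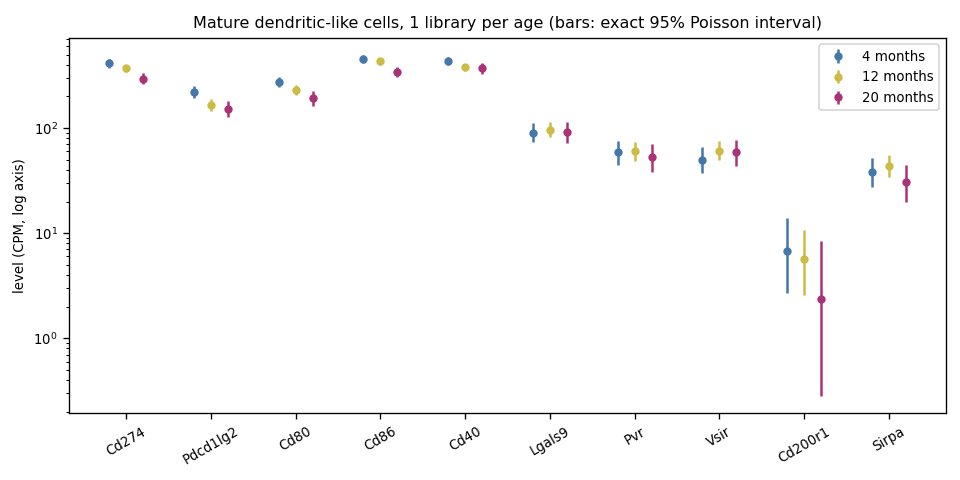
Level of each gene in mature dendritic-like cells (y axis, CPM, logarithmic) in the libraries of 4, 12 and 20 months, with exact 95% Poisson intervals as bars. Cd274, Pdcd1lg2, Cd80 and Cd86 are lower at 20 than at 4 months, with intervals that do not overlap, and the intervals of Lgals9, Pvr, Vsir and Sirpa overlap.

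The dendritic cell-like class as a whole, which holds the mature cells, had no member 1.5-fold higher (8.39% of 13328 genes were) or lower (4.98%) at 20 months. At 12 months none was higher (8.35%) and 1 of 10, Cd200r1, was lower (4.16%), at 23.6, 15.5 and 24.5 CPM. At clustering resolutions of 0.6 and 1.5, in place of 1.0, Cd200r1 did not pass 1.5-fold at 12 months. Cd274 in the class was at 139, 162 and 106, higher at 12 and lower at 20 than at 4 months, with ratios of 0.21 [0.08 to 0.34] and -0.40 [-0.55 to -0.25]. The makeup of the class moved alongside. Mature cells of the sub-cluster led by Ccr7 and Fscn1 were 17.2%, 27.3% and 14.7% of it, and type 1 dendritic-like cells, low in Cd274, 12.8%, 15.6% and 23.1%.

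Outside the mature cells, Cd40 was lower at 20 months beyond its interval in 2 further dendritic groups. In cells led by Cd209a and Ccl9, whose leading genes also hold the monocyte genes F13a1, Fn1 and Lyz2, it stood at 249 [218 to 283], 201 [168 to 239] and 142 [108 to 183] CPM, a 20-month log2 ratio of -0.81 [-1.25 to -0.40]. In the Ffar2-led type 2 dendritic-like cells the ratio was -0.55 [-0.80 to -0.31], and in type 1 dendritic-like cells 0.01 [-0.44 to 0.48]. Pvr had the opposite sign in the Cd209a-led cells, at 21.3, 29.4 and 64.8 CPM and a ratio of 1.61 [0.72 to 2.52], from 118, 64 and 49 cells. Lgals9 was lower at 20 months in 5 of 6 dendritic groups, beyond its interval in 4, and not in the mature cells.

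In monocyte/macrophage-like cells none of the 10 genes was 1.5-fold higher (9.57% of 20164 genes) or lower (5.73%) at 20 months, nor higher (11.5%) or lower (5.16%) at 12 months. The median log2 ratio of the 10 was -0.13 at 12 and -0.25 at 20 months, against 0.06 and 0.05 over all genes. Counting intervals are narrow in so many cells, and at 20 months 7 genes were lower and 2 higher beyond theirs.

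Lgals9 was the furthest below 4 months of the 10, at 481 [474 to 487], 385 [379 to 391] and 367 [362 to 373] CPM, a ratio of -0.39 [-0.42 to -0.36] at 20 months. It was lower in all 7 sub-clusters of the class, beyond its interval in 6. The CD28 ligands and Cd40 came next, with Cd80 at 40.6, 31.1 and 31.6 (-0.36 at 20 months), Cd40 at 145, 127 and 115 (-0.34) and Cd86 at 313, 297 and 251 (-0.31). Cd274 stood at 107, 86.9 and 97.1, with ratios of -0.30 [-0.36 to -0.23] at 12 and -0.14 [-0.20 to -0.08] at 20 months. With the T-like level subtracted the 20-month ratio of Cd274 was 0.041, of the opposite sign. Pdcd1lg2 had a 20-month ratio of -0.07 [-0.25 to 0.11].

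Sirpa and Vsir, the genes highest in C1q macrophage-like or nonclassical monocyte-like cells, were the 2 that were higher at 20 months. Sirpa stood at 195 [190.4 to 199], 210.3 [206 to 215] and 238 [234 to 243] CPM, a ratio of 0.29 [0.25 to 0.33], and was higher in 6 of 7 sub-clusters, beyond its interval in 5. Vsir stood at 222, 236 and 235, a ratio of 0.09 [0.05 to 0.13]. The Pf4-led C1q macrophage-like cells made up 8.13%, 12.5% and 22.05% of the class. The H2-Ab1-led cells, which also scored highest for C1q macrophage markers, made up 18.6%, 23.5% and 25.3%. The 7 C1q macrophage markers, none at 0, summed to 5668, 8094 and 10465 CPM in the class. Markers of other cells also differed between ages in this class. Those of neutrophils summed to 82.3, 217 and 297 CPM over 7 genes, those of NK cells to 486, 408 and 251 over 7 and those of T cells to 543, 856 and 716 over 6, with none at 0. Their part in the members' differences was not tested.

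With sub-cluster makeup held at that of the 4-month library, an alternative chosen after the data were seen, the 20-month ratios of Sirpa (0.16), Vsir (0.012), Lgals9 (-0.27), Cd80 (-0.22), Cd40 (-0.17), Cd86 (-0.16) and Cd274 (-0.002) were nearer to 0. The sign for Cd274 differed between sub-clusters. Its ratio was -0.41 [-0.55 to -0.28] in Tgm2-led cells, from levels of 151, 115 and 114 CPM, and 0.25 [0.11 to 0.39] in Cxcl11-led and 0.25 [0.08 to 0.43] in H2-Ab1-led cells. That difference between sub-clusters was not tested.

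Cd86 and Cd40 also varied between sub-clusters at 20 months. Cd86 was lower in 4 of 7, beyond its interval in 3, and Cd40 in 6 of 7, beyond its interval in 3. Cd86 was at 394, 359 and 296 CPM in Tgm2-led cells, a 20-month ratio of -0.41 [-0.50 to -0.33], and at 376, 389 and 388 in Cxcl2-led cells, a ratio of 0.04 [-0.04 to 0.13]. Cd40 was at 150.4, 98.8 and 102 in classical monocyte-like cells, a ratio of -0.55 [-0.71 to -0.40], and had a ratio of 0.06 [-0.04 to 0.16] in Cxcl11-led cells, where its level was highest. Pvr was at 16.05, 10.7 and 9.68 in C1q macrophage-like cells, a ratio of -0.73 [-1.17 to -0.28].

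**Figure D4:**
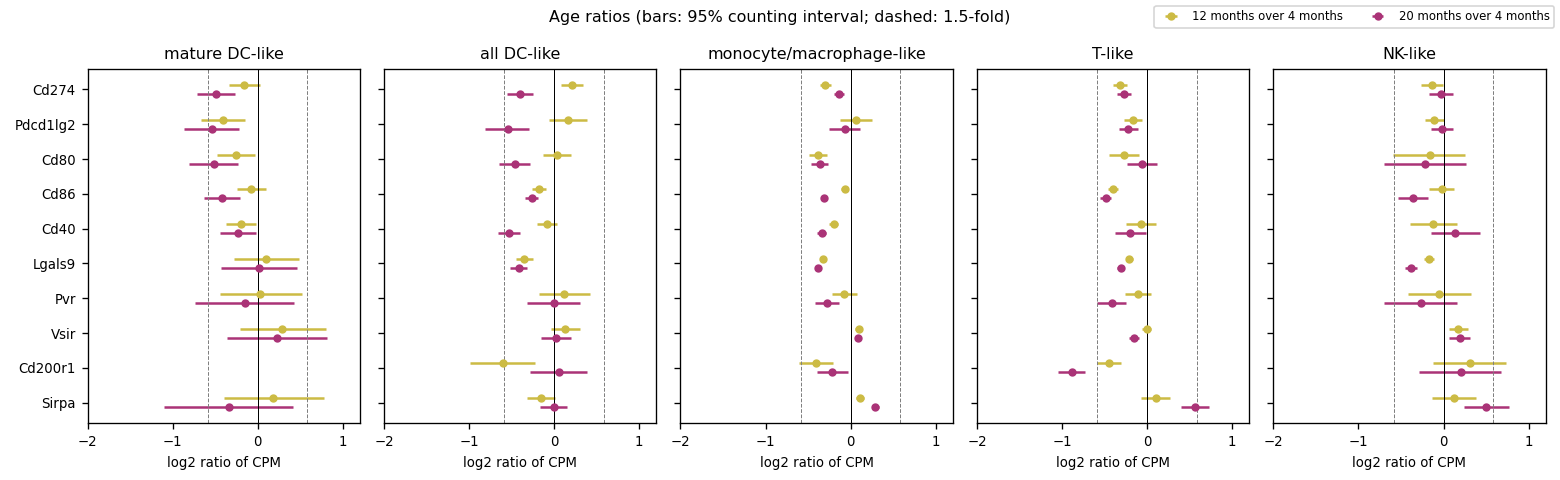
Log2 ratio of the level at 12 and at 20 months to that at 4 months for each gene in 5 classes of cells, with 95% counting intervals as bars and dashed lines at 1.5-fold. Most points lie between the dashed lines, Cd200r1 in T-like cells lies beyond the lower line at 20 months, and Cd200r1 in mature dendritic-like cells is left out for its few counts.

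In T-like cells 1 of 10 genes, Cd200r1, was 1.5-fold or more lower at 20 months, against 4.89% of 20208 genes, and none was higher, against 13.1%. At 12 months none was lower (5.22%) or higher (10.8%). Cd200r1 stood at 22.3 [20.7 to 23.9], 16.3 [15.3 to 17.5] and 12.04 [11.05 to 13.1] CPM, with ratios of -0.45 [-0.59 to -0.30] and -0.89 [-1.05 to -0.72], and the 3 intervals of its levels did not overlap. With makeup held at 4 months the 20-month ratio was -0.50, short of 1.5-fold.

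In each library most Cd200r1 counts of T-like cells lay in 3 sub-clusters, whose shares of the class differed between ages. Regulatory T-like cells, with Cd200r1 at 50.03, 38.4 and 41.3 CPM, were 14.4%, 9.27% and 7.81% of T-like cells. Cells led by Ccl1, Ccl3 and Ifng, with 45.3, 40.03 and 23.2, were 15.5%, 11.1% and 5.96%. Dividing cells, with 33.1, 18.8 and 14.1, were 6.23%, 9.65% and 12.7%. Within sub-clusters the 20-month ratio of Cd200r1 was -0.97 [-1.38 to -0.57] in Ccl1-led and -1.23 [-1.61 to -0.86] in dividing cells, but 0.67 [0.25 to 1.11] in cells led by Gzma, Gzmk and Cxcr6, from 6.73, 8.98 and 10.7 CPM. Regulatory T-like cells had -0.28 [-0.59 to 0.03]. Whether these ratios differ from each other was not tested.

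Cd86 was lower in T-like cells at both later ages, at 130.0 [126 to 134], 98.2 [95.6 to 101] and 92.7 [89.9 to 95.6] CPM, a ratio of -0.49 [-0.55 to -0.43] at 20 months. All 5 larger sub-clusters had it lower, 3 beyond the interval. The ratio was -0.94 [-1.11 to -0.77] in cells led by Dapl1 and Ccr7, with 82.9, 55.2 and 43.2 CPM, and -0.67 [-0.87 to -0.47] in regulatory T-like cells, with 144, 105 and 90.4. Over the same ages the 8 monocyte/macrophage markers in T-like cells summed to 915, 802 and 962 CPM, and 1 of the 8 was lower at 20 months. The 8 type 2 dendritic markers summed to 705, 539 and 535. Only 3 of these 8 were lower at 20 months, and their median log2 ratio was 0.05. That list summed to 1471, 1334 and 1366 in NK-like and 916, 882 and 904 in dendritic cell-like cells, so it is not particular to dendritic cells. The 9 mature dendritic markers summed to 476, 452 and 372, with 6 of the 9 lower at 20 months. No marker of these lists was at 0 in T-like cells. The part of these in the lower Cd86 level was not tested. Cd80, the other CD28 ligand, had a 20-month ratio of -0.06 [-0.24 to 0.11] over all T-like cells. It was lower in 3 of the 5 sub-clusters, none beyond the interval, and higher beyond it in Gzmk-led (0.59 [0.23 to 0.96]) and dividing T-like cells (0.52 [0.07 to 1.00]). Lgals9 was lower, with 20-month ratios of -0.31 [-0.35 to -0.27] in T-like and -0.38 [-0.45 to -0.32] in NK-like cells.

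Sirpa was higher at 20 months in T-like cells, at 13.5, 14.5 and 19.98 CPM and a ratio of 0.56 [0.40 to 0.73], and in NK-like cells, at 12.8, 14.01 and 18.2. These are levels at the macrophage background, and the 7 C1q macrophage markers in T-like cells summed to 469, 671 and 1034, with none at 0. T-like cells led by Dpf3 and Sim1, which scored highest for macrophage markers, had Sirpa between 39.1 and 71.5 CPM. They held 306747, 779785 and 2250803 of the 33026639, 51978449 and 44937504 counts of the T-like class. The part of these markers and cells in the Sirpa level was not tested. In NK-like cells none of the 10 genes was 1.5-fold higher (8.25% of 15948 genes) or lower (4.73%) at 20 months, nor higher (8.7%) or lower (4.27%) at 12 months. Pdcd1lg2 had a 20-month ratio of -0.02 [-0.15 to 0.11] there.

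**Figure D5:**
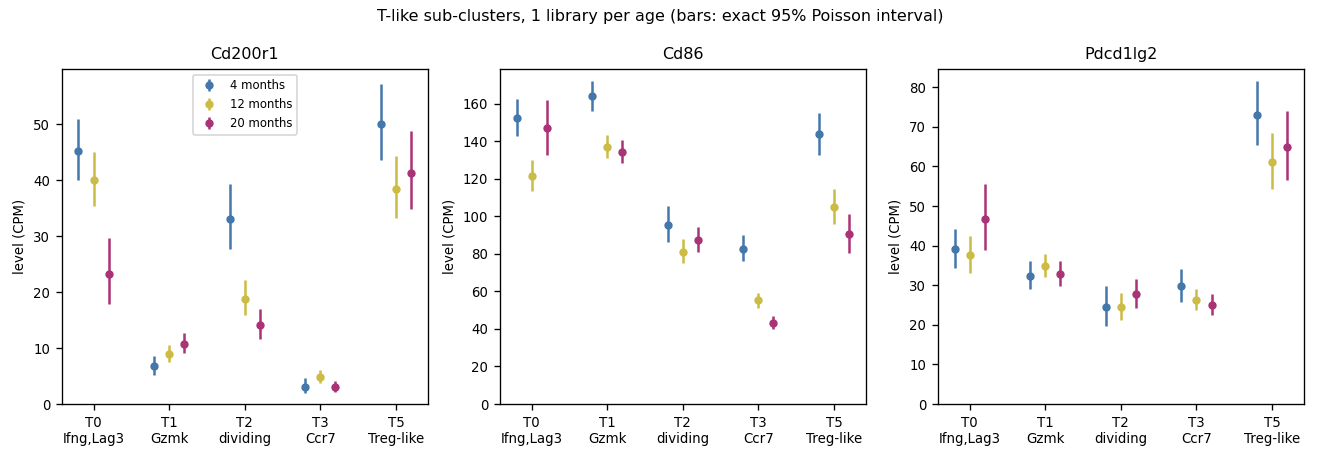
Levels of Cd200r1, Cd86 and Pdcd1lg2 (CPM, linear from 0) in 5 sub-clusters of T-like cells in the libraries of 4, 12 and 20 months, with exact 95% Poisson intervals as bars. Cd200r1 is lower at 20 than at 4 months in the T0 (Ccl1-led) and T2 (dividing) groups and higher in T1 (Gzmk-led), and Cd86 is lowest at 20 months in T3 (Dapl1-led) and T5 (regulatory T-like).

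The partners of these molecules were also located. Pdcd1, which encodes PD-1, was highest in Ccl1-led T-like cells, at 634, 515 and 559.9 CPM, and Ctla4 in regulatory T-like cells, at 1784, 1726 and 1597. Cd28 was highest in regulatory T-like cells as well, Cd40lg in gamma-delta T-like cells, Cd226 in Gzmk-led and Cd96 in Ccl1-led T-like cells. Cd200, the ligand of CD200R1, was highest in mature dendritic-like cells, at 815, 653 and 631, as was Selplg, a partner of VISTA. Cd47, the ligand of SIRPα, was highest in plasmacytoid dendritic-like cells, Havcr2 (TIM-3) in Il1r2-led dendritic cell-like cells, and Tigit in T-like cells led by Dpf3 and Sim1 that scored highest for macrophage markers. This order rests on medians over the 3 libraries among the groups of the named classes.

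The counts of list genes that follow stand beside the share of all genes past 1.5-fold in the same direction and class at 20 months. Of the 11 partner genes, none was 1.5-fold apart at 20 months in monocyte/macrophage-like cells (9.57% of all genes higher, 5.73% lower). In dendritic cell-like cells 1 of 10 was lower (4.98%), Cd200 (143, 169 and 90.1 CPM). Among 16 of 18 other ligands and receptors of these families that could be compared in monocyte/macrophage-like cells, Tnfsf4, the OX40 ligand, was higher (2.27, 3.13 and 3.97), and Cd276 (B7-H3; 22.1, 11.8 and 13.6) and Ceacam1 (20.5, 13.1 and 13.1) were lower. In dendritic cell-like cells 4 of 14 were higher (against 8.39%), Nectin2, Tnfsf14, Tnfrsf14 and Cd200r4, all under 10 CPM, and 2 were lower (against 4.98%), Tnfsf4 (10.6, 8.94 and 5.06) and Ceacam1 (6.42, 5.96 and 3.79). In T-like cells 1 of 11 partners was lower (against 4.89%), Cd200 (17.4, 17.03 and 11.4), and 2 of 17 other ligands were higher (against 13.1%), Nectin2 (0.545, 0.346 and 0.912) and Tnfsf4 (2.51, 4.06 and 7.19).

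In mature dendritic-like cells 2 of 8 of these other ligands were lower at 20 months (against 9.74%), Icosl, the ICOS ligand (113, 96.2 and 65.6 CPM), and Tnfsf4 (50.01, 30.6 and 18.8), and 1 of 10 partners, Cd96 (19.2, 17.5 and 11.7). None of 8 interferon-gamma signalling genes and none of 8 NF-κB genes was 1.5-fold apart in mature dendritic-like, dendritic cell-like or monocyte/macrophage-like cells at 20 months, and in T-like cells 1, Nfkbia, an inhibitor of NF-κB, was lower (1052, 899 and 661). Their medians in mature dendritic-like cells were -0.15 and -0.26. Relb, an NF-κB gene known for its part in dendritic cell maturation, stood at 820.3, 678 and 655, a ratio of -0.32 [-0.48 to -0.17]. Irf1, which takes part in the interferon-gamma signal that is known to induce Cd274, had a ratio of -0.30 [-0.48 to -0.12]. Relb and Irf1 were chosen after their values were seen.

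Genes were ranked by Pearson's correlation with each member over 69 sums of a group of cells in a library. This is a description, since the sums share libraries and depth. Cd80 and Cd86 followed each other with r = 0.839, and Cd40 and Cd86 with 0.839. Cd274 followed Cd80 with 0.792 and its neighbour Pdcd1lg2 with 0.144, and Lgals9 and Pdcd1lg2 ran opposite, at -0.614.

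Of 18653 genes ranked, those most like each member were Gtsf2 (0.845) for Cd274, Nabp1 (0.919) for Pdcd1lg2, Cd83 (0.868) for Cd80, Trps1 (0.880) for Cd86 and Vwa5a (0.929) for Cd40. They were Rnpep (0.862) for Lgals9, Pde4b (0.808) for Pvr, Rnase4 (0.865) for Vsir, Lclat1 (0.730) for Cd200r1 and Ly86 (0.957) for Sirpa. CD83 is itself a surface marker of mature dendritic cells, and Ly86 is a gene of myeloid cells.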

How the data were processed

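Libraries were prepared with a PIP-seq 3′ kit, per the labels' protocols. The authors deposited raw counts per gene and cell. The submitters' processing notes name STAR 2.7.10a and GRCm38, and use of strand, cell calling and the kind of count (molecules or reads) are not given in the sources used here. The other deposited files hold gene and cell names.

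Deposited cells already had at least 3555, 4493 and 4356 counts, so the lowest depth differed between ages. Thresholds of 500 counts and 15% mitochondrial counts removed 2, 0 and 0 cells. The 6% of cells with the highest Scrublet score per library were then removed as doublets. That left 13528, 13774 and 13803 cells. Leiden clustering (scanpy 1.11.5; 2000 variable genes, 30 components, 15 neighbours, resolution 1.0, within classes 0.5) left out 55 genes, namely the members and the genes of the 4 related lists. Clusters were named by the highest marker score (at least 0.4), and sub-clusters are called by leading genes where these did not bear the name out. Cells led by Cxcl2 and those led by Cxcl11 scored highest for activated monocyte markers. Cd209a-led cells did so for type 2 dendritic markers and Cyp7b1-led cells for plasmacytoid dendritic markers. Each of these groups had a marker of its list among its leading genes, but is also called by leading genes here. Clusters were formed on all libraries together with no batch correction. Counts were summed per group and library, and ratios have conditional binomial intervals. The code was tested on simulated data. TMM factors came from edgeR 4.0.16. Values of 2 list genes are not reported here, and 1 of them was left out of the macrophage background.

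The members, lists and tests were chosen with earlier results of these data known. Genes named are the members, list genes 1.5-fold or more apart at 20 months, the top group of each partner and the genes most correlated with a member on log2(CPM + 10). Promoter windows stop 31 bases before the start so that no transcribed base is shown.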

Additional observations from a re-analysis of the deposited data

Results flagged for a closer look

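One gene was 1.5-fold or more apart between ages in opposite directions in groups of at least 100 cells per library. Cd200r1 had a 20-month log2 ratio of 0.67 in Gzmk-led T-like cells, and of -0.97 in Ccl1-led and -1.23 in dividing T-like cells, each beyond its counting interval. With 1 library per age the difference between these groups was not tested, and a library far from others of its age could not be looked for.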

How the results depend on the processing

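With 1 library per age no library could be left out. No paired analysis was possible because each age has 1 library and no result comes from a test. Of 348 recomputed counts and medians, 321 stayed within 1.5 times the count or within the counting interval. Subtracting free RNA here means taking away the whole T-like level in monocyte/macrophage-like and dendritic groups. In T-like and NK-like cells it means taking away the macrophage background share of the monocyte/macrophage-like level. Several members were well above that background in T-like cells, so the first form can take away more than free RNA. Members lower in dendritic cell-like cells at 12 months went from 1 to 0 at resolution 0.6 or 1.5, with at least 5000 counts per cell, with each cell's own CPM averaged, with free RNA subtracted (1 then higher) or with makeup held. At 20 months they went from 0 to 1 with doublets kept, averaged CPM or free RNA subtracted (1 then higher) and to 2 with libraries clustered separately. In mature dendritic-like cells at 20 months they went from 0 to 2 with doublets kept (Cd274, Pdcd1lg2) or free RNA subtracted (Pdcd1lg2, Sirpa), and to 1 (Cd200r1) without the 50-count minimum. In T-like cells at 20 months they went from 1 to 2 with free RNA subtracted (Cd86, Cd200r1) and to 0 with makeup held, and members higher from 0 to 1 (Sirpa) with separate clustering or TMM scaling. With free RNA subtracted, 1 member was higher at 20 months in monocyte/macrophage-like cells (Pvr, 0.64) and 1 in NK-like cells. The T-like level of Pvr taken away was 90.8% and 82.5% of the monocyte/macrophage-like level at 4 and 20 months. Medians in monocyte/macrophage-like cells moved to -0.049 (12 months) and -0.081 (20 months) with free RNA subtracted and to -0.086 (12 months) with makeup held. They moved in dendritic cell-like cells to -0.21 and -0.22 with makeup held, and in T-like cells at 12 months to -0.076 with separate clustering. Separate clustering left 5064, 4795 and 6123 T-like cells, against 5123, 6739 and 6258. It left 1908 cells unnamed at 12 months, against 59, so the 12-month class lost the most cells. The cause of these moves was not tested. Over the alternatives the 20-month ratio of Cd274 in mature dendritic-like cells lay between -0.60 and -0.43, and that of Cd200r1 in T-like cells between -1.01 and -0.50. Of 52 single ratios, 11 took the opposite sign under some alternative, among them that of Cd274 in monocyte/macrophage-like cells at 20 months (0.041 with the T-like level subtracted).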

Other observations

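Of 3 clusters in no named class, 1 had 8 cells, led by the haemoglobin genes Hbb-bs and Hba-a1, and is not described further. The cluster led by Mgp, Apod and Col3a1, genes of matrix-producing cells, had Lgals9 at 335 [291 to 383], 263 [212 to 322] and 184 [149.9 to 224] CPM, a 20-month log2 ratio of -0.86 [-1.22 to -0.52], from 50, 31 and 46 cells. The cluster led by Igkc, Igha and Jchain, genes of antibody-producing cells, had Cd86 at 266 [189 to 364], 191 [146 to 245] and 155 [100.0 to 228] CPM and Cd40 at 150.2 [94.2 to 227], 68.9 [43.2 to 104] and 43.3 [17.4 to 89.1], from 24, 26 and 22 cells. The 20-month ratio of Cd40 there was -1.80 [-3.27 to -0.52].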
